A study of Mus musculus with 23 samples.

Results

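Mouse embryonic stem (ES) cell lines that carry no intact allele (-/-) were compared with lines that carry at least 1, in cells that had received no SRF activator. The -/- lines were E81 and E100, and the comparison lines were E14 (wt) and E99 (+/-). The comparison took 15 of the 23 arrays of the series, chosen by line and plasmid from the sample titles: 7 arrays of the -/- lines (4 of E81 and 3 of E100) and 8 of E14 and E99 (4 of each). Each line had been transfected with an empty vector or with SRFdM-VP16, the study's control plasmid, and total RNA was taken 72 hours later. The other 8 arrays are of the same lines transfected with SRF-VP16, a fusion of serum response factor (SRF) to the VP16 activation domain. The genotype labels name no gene, and the SRF locus is inferred here from the series title. No probe set of the array was paired with Srf, so the genotype could not be checked on its own transcript. The wt and +/- genotypes rest on 1 line each and the -/- genotype on 2, and arrays of 1 line share all that is particular to that line. With 2 lines against 2, no exchange of whole lines can give a p below 0.333. Nothing in the labels says whether replicates were separate cultures, so the spread between replicate arrays may be technical. Unless stated, p-values take single arrays as the unit. In the main comparison line was not a term, so differences between the lines of a group also enter the spread.

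SRF is a DNA-binding factor that recognises a short A/T-rich element, the CArG box. It works with 2 kinds of partner: ternary complex factors, which respond to MAP kinase signalling and act on immediate-early genes such as Egr1 and Fos, and the myocardin-related factors (MRTFs), which are held by actin monomers and act on genes of the actin cytoskeleton. Mouse ES cells lacking SRF have been studied for defects in actin organisation, adhesion and immediate-early induction, and the comparison asks which transcripts depend on the endogenous factor.

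The deposited values are linear intensities. Values under a floor of 58 were raised to it before the log2 scale was taken, and 8785 probe sets were tested with limma, genotype beside a term for the plasmid, at an adjusted p under 0.05. Array medians of intensity ran from 53.5 to 207 in the -/- arrays and from 90.0 to 177 in the others, and 24.3% to 43.6% of the values of a -/- array were at or below 0, against 25.03% to 38.4%. E81 SRFdM-VP16 replicate 1 stood apart, with a median correlation to its fellow arrays of 0.871, against 0.917 or more for each of the other 14. The median probe set was 0.13 higher on the log2 scale in the -/- arrays, which is the level against which the changes below should be read. All 8 ES cell markers on the array (among them Pou5f1, Zfp42 and Sox2) had medians above the floor in both groups. Their summed intensity ran from 51968 to 110698 in the -/- arrays and from 55580 to 87464 in the others. Fibroblast markers were taken as a sign of feeder cells, and 7 of the 9 listed were on the array. Their summed intensity was low, at 106 to 442 in the -/- arrays and 116 to 586 in the others. The medians of Col1a2, Fap, Pdgfrb and Postn were at or below the floor. Those of Col3a1 (86 and 84) and Lum (99 and 99) were a little above it in both groups. Dcn had medians of 55 in the -/- arrays and 78.5 in the others.

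Only 2 of 8785 probe sets passed, both lower in the -/- lines: cytoplasmic gamma-actin (Actg1) and the germ-cell and early-embryo factor Dppa3, also called Stella. They make up 0.0228% of the probe sets tested. No probe set was called higher by limma, while at an unadjusted p under 0.05 there were 415 higher and 73 lower (4.72% and 0.831%, or 5.55% in all). That split changed with the scaling of the arrays and with the -/- line. With quantile-normalized arrays it was 179 against 212, and with arrays set to a common median 116 against 169. Without such scaling it was 1800 against 79 with E100 as the only -/- line, and 162 against 179 with E81. The cause of the split was not tested. In 4 probe sets, or 0.0455%, the 7 -/- arrays did not overlap the 8 others. They were Actg1, Dppa3 and the actin-binding transgelin (Tagln), all lower (0.0341%), and the proliferation marker Mki67, higher (0.0114%).

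**Figure D1:**
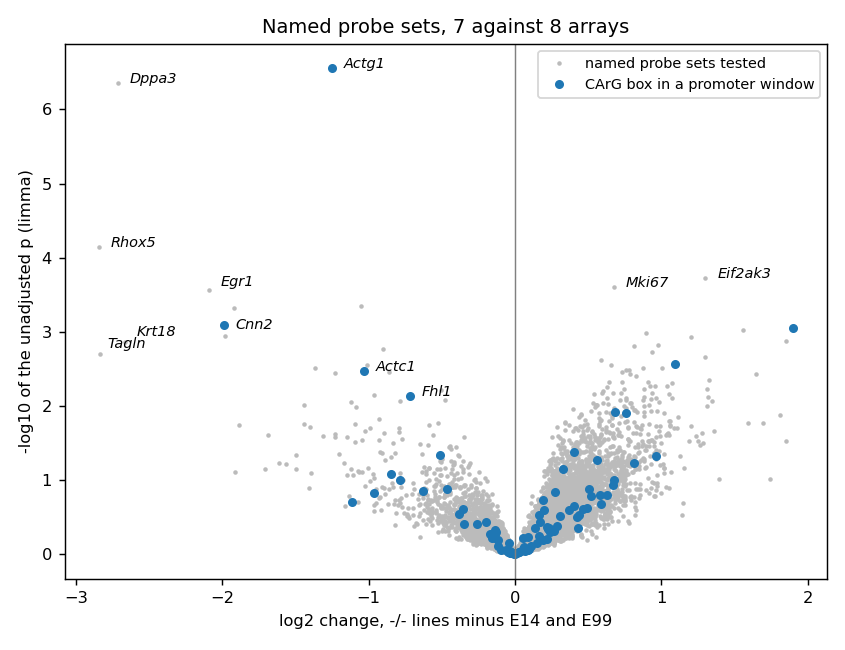
Each point is a probe set paired with 1 gene symbol. The horizontal axis is the log2 change (-/- lines minus E14 and E99) and the vertical axis -log10 of limma's unadjusted p, with genes that hold a CArG box in a promoter window in blue. Actg1 and Dppa3 (limma adjusted p = 0.002 for both) stand above all other points.

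A promoter sequence with a CArG box was found for Actg1. The sequences that follow are shown because they hold a CArG box, in capitals, upstream of genes described here. They are RefSeq promoter sequences of build GRCm38.p6, written 5′ to 3′ on the strand of the gene. The CArG box was searched on both strands by its standard consensus, which reads the same on either strand. The Actg1 line gives the 250 bases before the start (chr11:120348496-120348745, minus strand), with the box beginning 90 bases before it.
Actg1: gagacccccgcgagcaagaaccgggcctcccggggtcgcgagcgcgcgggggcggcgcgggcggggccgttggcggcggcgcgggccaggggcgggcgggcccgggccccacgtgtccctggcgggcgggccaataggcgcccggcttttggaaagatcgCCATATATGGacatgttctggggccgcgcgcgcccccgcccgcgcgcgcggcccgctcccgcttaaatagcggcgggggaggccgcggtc
The skeletal actin Acta1 (chr8:123894814-123894873, minus strand), the cardiac actin Actc1 (chr2:114052888-114052947, minus strand), the calponin Cnn2 (chr10:79988519-79988578, plus strand), vinculin, Vcl (chr14:20929148-20929205, plus strand), and the LIM-domain gene Fhl1 (chrX:56779556-56779615, plus strand) also hold one, shown with up to 25 bases on each side. Their boxes begin 73, 47, 56, 227 and 102 bases before the start. Of the 2 Fhl1 windows 1 holds the box, and the window of the smooth-muscle actin Acta2 holds none. Actb, Actg2, Dppa3, Tagln and Egr1 were not searched.
Acta1: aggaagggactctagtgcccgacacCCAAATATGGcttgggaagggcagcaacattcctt
Actc1: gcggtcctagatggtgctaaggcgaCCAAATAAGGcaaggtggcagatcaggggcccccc
Cnn2: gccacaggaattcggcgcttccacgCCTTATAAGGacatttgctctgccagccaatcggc
Vcl: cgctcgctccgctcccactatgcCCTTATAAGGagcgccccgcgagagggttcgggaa
Fhl1: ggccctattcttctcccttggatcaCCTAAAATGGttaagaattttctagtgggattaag
Of 32851 promoter windows of 300 bases in the table, 1.63% hold this element. The match is a description of the sequence and shows no binding.

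Actg1, an abundant actin of the cytoskeleton of non-muscle cells, fell 2.38-fold in the -/- lines. With vector it read 25721 and 30085 in E14, 18604 and 23180 in E99, 13268 and 14870 in E81 and 10104 in the E100 array. With SRFdM-VP16 it read 29243 and 28474 in E14, 20906 and 26649 in E99, 7159 and 9812 in E81 and 10381 and 9375 in E100. Every -/- array lay below every E14 and E99 array, with 14870 as the highest -/- value and 18604 as the lowest of the others. The change was -1.25 ± 0.15 (log2 ± SE, limma adjusted p = 0.002). The means of E81 and E100 differed by 0.10 (SE 0.21, adjusted p = 0.83), and the change read -1.07 against E99 alone, where it was not called (adjusted p = 0.22). In the SRF-VP16 arrays, which the comparison did not use, the order was turned: the -/- lines read 30227 to 41452 and E14 and E99 23026 to 25143. The difference there was 0.49 (SE 0.13, exact permutation p = 0.0286 over 4 against 4 arrays, the smallest that design allows, and adjusted p = 0.24 in limma). The genotype difference with SRF-VP16 minus that without it was 1.72 (SE 0.21, limma adjusted p = 0.00037). None of the 8 nearest tested genes in chromosome order passed, from Chmp6 to Mcrip1, with changes of -0.11 to 0.37.

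**Figure D2:**
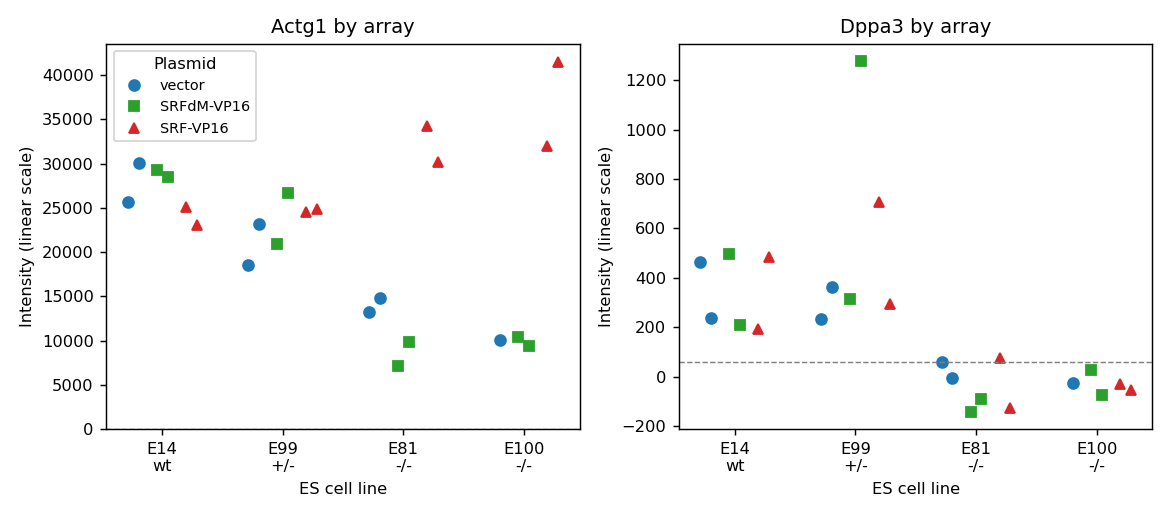
Points are single arrays of each line, by plasmid, on a linear intensity scale. In the Dppa3 panel the dashed line marks the floor of 58. Actg1 is low in the -/- lines with vector or SRFdM-VP16 and high with SRF-VP16, while Dppa3 stays between -143 and 75 in all -/- arrays.

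Beta-actin (Actb), the other cytoplasmic actin, was measured by general probe sets and by the control probe sets of the array, which target the 5 prime, middle and 3 prime parts of the transcript. The middle control read 4300 to 16343 (median 7564) in the -/- arrays and 17859 to 28066 (median 24121) in the others, without overlap. The difference was -1.49 on the log2 scale (exact permutation p = 0.00016, the smallest that 7 against 8 arrays allow). The 5 prime control read 1109 to 12400 (median 5323) against 12042 to 22080 (median 17773), a difference of -1.76 (exact permutation p = 0.00031). The 3 prime control differed less, by -0.42 (exact permutation p = 0.0045), with 10655 to 23611 against 20910 to 29415. The ratio of 5 prime to 3 prime signal of Actb was therefore lower in the -/- arrays, with a median of -1.74 against -0.61 on the log2 scale (exact permutation p = 0.0026). The same ratio of the glycolytic enzyme Gapdh, a common check of RNA integrity, had medians of 0.22 and 0.25 (exact permutation p = 0.82). The lowest ratios in the -/- arrays were -0.93 for Gapdh and -4.41 for Actb. E81 SRFdM-VP16 replicate 1 read low at the 5 prime end of both transcripts. It read 15861 at 5 prime and 30182 at 3 prime for Gapdh, and 1109 and 23611 for Actb. Whether RNA integrity differed in that array was not tested. The 3 Gapdh controls differed by -0.10, 0.00 and -0.04 (exact permutation p = 0.62, 0.99 and 0.79). Within the -/- arrays, E81 read lower than E100 at the middle Actb control, with 4300 to 7564 against 8736 to 16343. These exact tests treat arrays of 1 line as separate. Over the 8 control tests the Benjamini-Hochberg adjusted exact permutation p was 0.00124 for the 5 prime and middle Actb controls, 0.00901 for the 3 prime control, 0.00705 for the Actb ratio, and 0.938 or more for Gapdh.

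**Figure D3:**
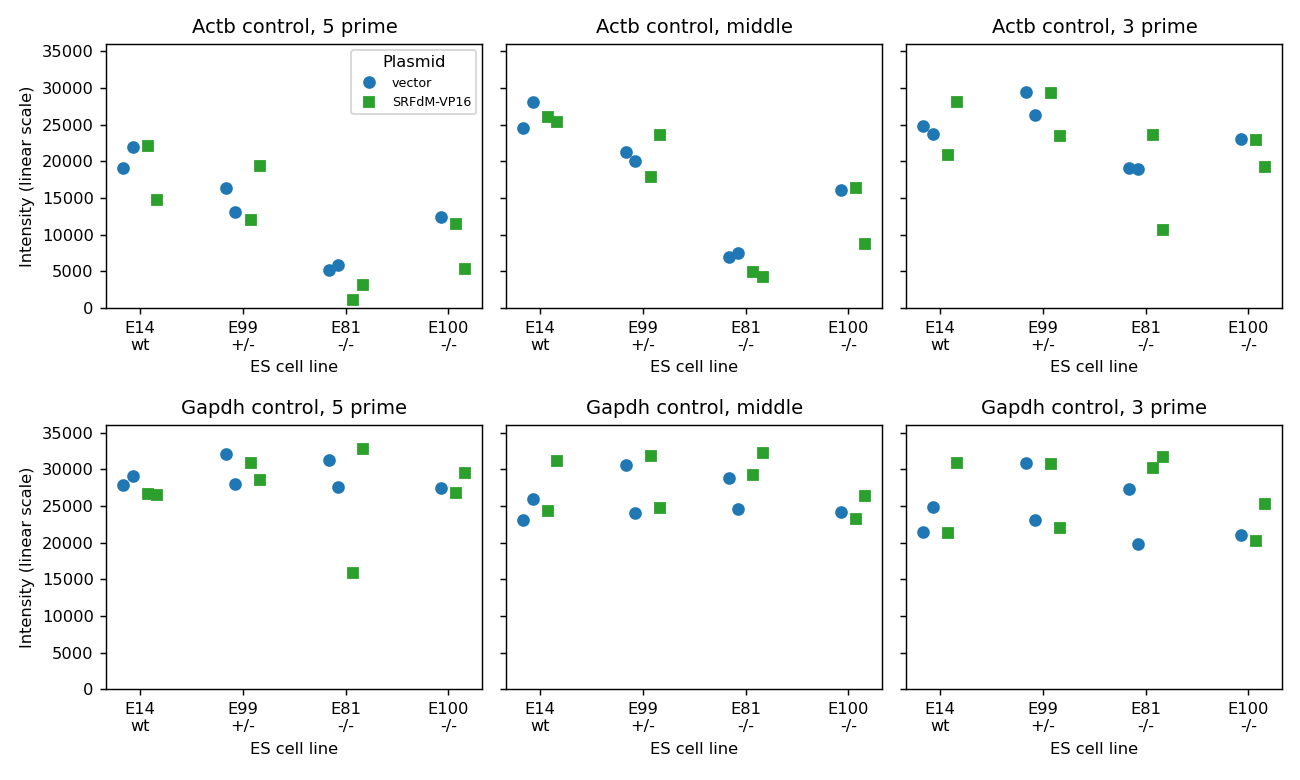
Points are single arrays with vector or SRFdM-VP16, on a linear intensity scale from 0. The upper row shows the Actb controls and the lower row the Gapdh controls. The -/- lines lie low for the 5 prime and middle Actb controls, while the Gapdh controls overlap between lines.

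The general actin probe sets gave smaller values. Of 6 actin isoforms on the array, 5 passed the filter on low values. All 5 read lower in the -/- lines, with a median of -0.96 against 0.13 over the 6337 named genes tested. Actg1 alone passed the adjusted threshold, and 4 of the 5 had an unadjusted p under 0.05 in the lower direction, against 0.884% of named genes (4.53% in the higher direction). Actb read 2899 to 7105 (median 5456) against 4909 to 13389 (median 8019), a change of -0.56 ± 0.23 (adjusted p = 0.83). Its other probe set gave -0.60 (adjusted p = 0.85). Actc1 read 295 to 1367 against 705 to 1867 (-1.03 ± 0.30, adjusted p = 0.75). Its other probe set was below the filter, at -62 to 47 against -76.9 to 30. The smooth-muscle gamma-actin Actg2 read 1658 to 6894 against 4822 to 9414 (-0.90 ± 0.24, adjusted p = 0.65). The probe sets used for Actb, Actc1 and Actg2 have names ending in _f_at, which marks probes that can hybridise to related transcripts, so Actg1 or Actb RNA may contribute to them. Acta1 was near background, with -387 to 66 in the -/- arrays, and above 100 in the 2 E14 arrays numbered 2 alone (799 and 1007; change -0.96 ± 0.64, adjusted p = 0.86, and 0.03 without these 2).

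**Figure D4:**
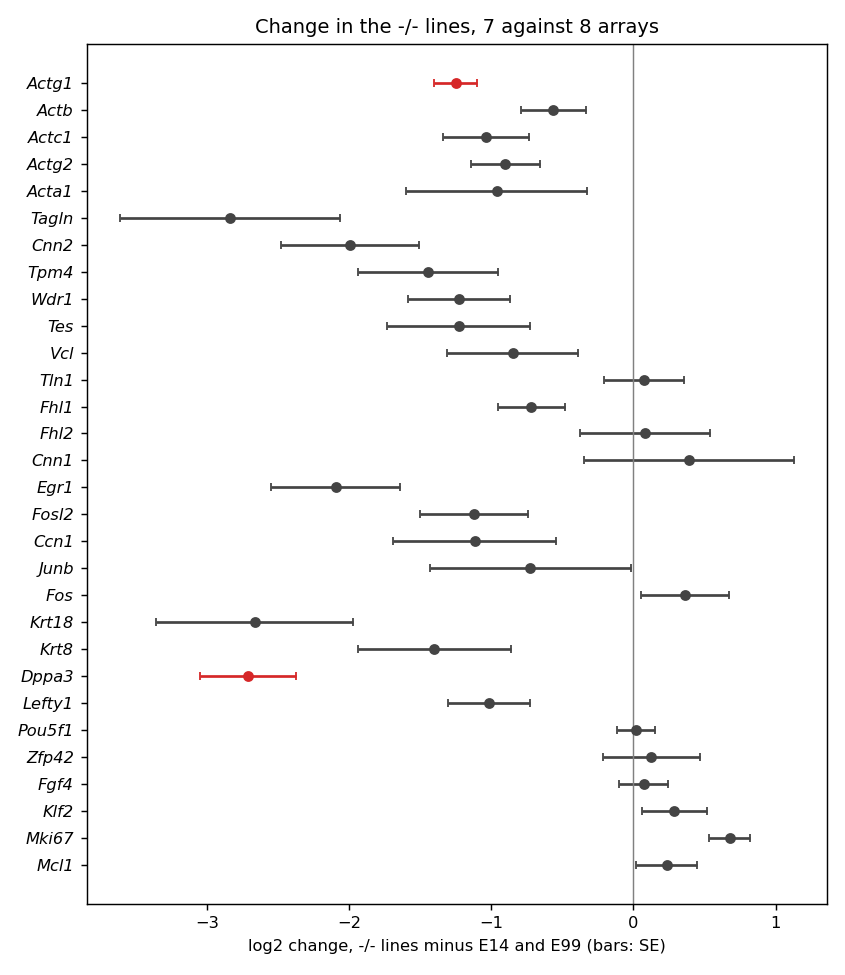
Points are log2 changes (-/- lines minus E14 and E99, 7 against 8 arrays) and bars are SE. Actg1 and Dppa3, in red, passed the adjusted threshold, and the other genes did not. The actins, Tagln, Cnn2, Egr1 and Krt18 lie left of 0, and Pou5f1, Zfp42 and Fgf4 lie near it.

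Genes that turn over actin filaments stayed near the general level. Of 22 tested, 0 passed by limma and 1 had an unadjusted p under 0.05, and their median was 0.00. The one was Wdr1, a cofactor of cofilin in filament disassembly, which read 225 to 1734 (median 839) against 1072 to 2744 (median 2044), a change of -1.23 ± 0.36 (adjusted p = 0.75). Cofilin itself (Cfl1, 0.01 ± 0.26) and profilin (Pfn1, -0.26 ± 0.28) gave small values. Of 12 actomyosin and tropomyosin genes, 0 passed by limma and 3 were lower at an unadjusted p under 0.05 (0.884% over all named genes), with a median of 0.07. These 3 were Tagln (-2.84 ± 0.77, adjusted p = 0.71), Cnn2 (-1.99 ± 0.49, adjusted p = 0.58) and the tropomyosin Tpm4 (-1.45 ± 0.49, adjusted p = 0.83). Cnn2 read -12 to 154 (median 25) in the -/- arrays, where 1 array exceeded 48, and 131 to 1165 (median 177) in the others. Tpm4 read 281 to 2293 against 1118 to 9207. Calponin 1 (Cnn1, 0.39 ± 0.74) and non-muscle myosin (Myh9, -0.32 ± 0.21) did not pass, and Myl9 and Acta2 were below the filter.

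Of 18 focal-adhesion genes tested, 0 passed by limma, with a median of 0.01. Only 1 was lower at an unadjusted p under 0.05 (0.884% over all named genes). That was Tes, a LIM-domain protein of focal adhesions (-1.23 ± 0.50, adjusted p = 0.83). Vcl, which anchors actin to adhesions, read 1026 to 1281 in 6 of the 7 -/- arrays and 89 in E81 SRFdM-VP16 replicate 1, against 1168 to 2969 (-0.85 ± 0.46, adjusted p = 0.85). Without that array the Vcl change read -0.36, and its other probe set, near background, gave -0.13. Talin (Tln1, 0.07 ± 0.28) did not pass, and Flna was below the filter. Of 8 LIM-domain cofactors, 0 passed by limma, with a median of -0.44. At an unadjusted p under 0.05, 2 were lower (0.884% over all named genes). They were Fhl1, a LIM-only protein (716 to 1186 against 924 to 2876, -0.72 ± 0.23, adjusted p = 0.83; its other tested probe set 0.16), and the small LIM protein Crip1 (-0.82 ± 0.37, adjusted p = 0.85). Fhl2, an SRF target that binds SRF, read 22 to 741 against 164 to 919 (0.08 ± 0.46, adjusted p = 0.99).

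Several smooth-muscle and epithelial transcripts were high in the 2 E14 arrays numbered 2. Tagln read 73 to 226 (median 165) in the -/- arrays. It read 9417 and 11738 in those 2 arrays, 264 and 591 in the E14 arrays numbered 1, and 350 to 621 in E99. All 7 -/- arrays thus lay below all 8 others, but the spread within E14 was larger than the gap to E99. Acta2, the smooth-muscle alpha-actin, read 7463 and 7302 in the same 2 arrays and -22 or less in the other 13. Krt18, a simple-epithelial keratin that is also an early marker of primitive endoderm, read 8843 and 8168 there and 70 to 857 elsewhere. Its change was -2.66 ± 0.69 (adjusted p = 0.61), and that of its partner Krt8 was -1.40 ± 0.54 (adjusted p = 0.83). Without the 2 arrays the Tagln change read -1.71 and that of Krt18 -1.70, and Actg1 and Dppa3 remained the 2 calls. Cnn2, Tpm4 and Tes were also highest in these 2 arrays (874 and 1165, 9207 and 7385, and 1482 and 1076). Without them Cnn2 read -1.34, Tpm4 -0.89, Tes -0.59 and Krt8 -0.71. Against E99 alone the change was -1.81 for Tagln, -1.88 for Krt18, -1.21 for Cnn2, -0.63 for Tpm4 and -0.73 for Tes, none of them called.

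**Figure D5:**
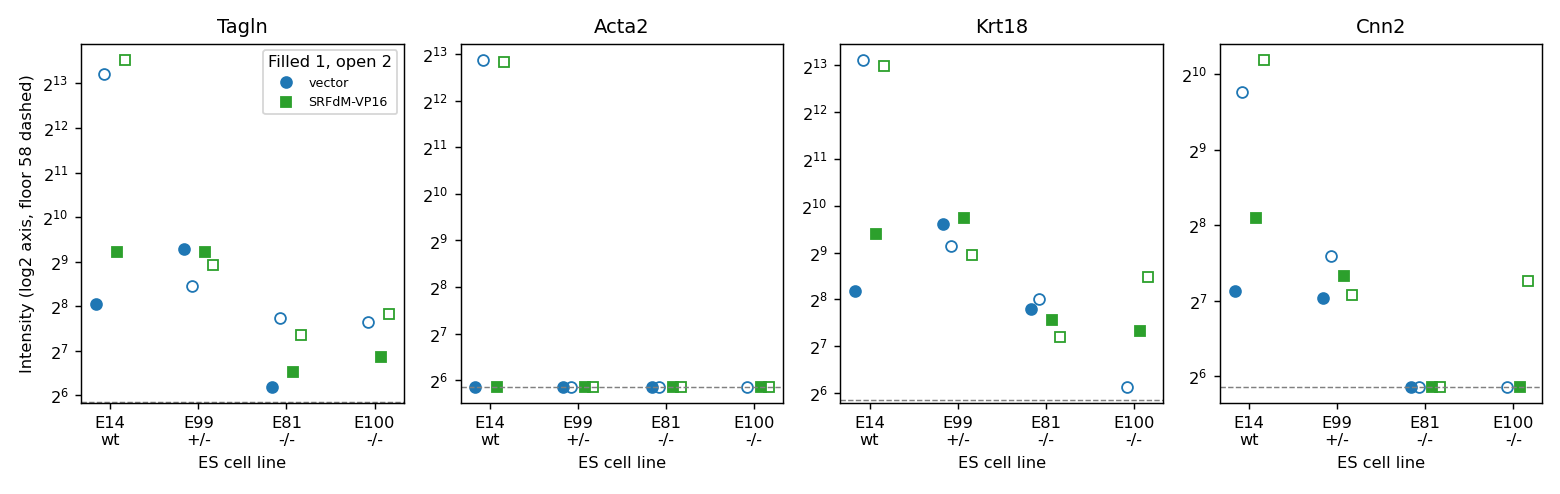
Points are single arrays on a log2 intensity axis. Filled symbols are arrays numbered 1 and open symbols arrays numbered 2, and the dashed line is the floor of 58. The open E14 symbols lie far above all others for Tagln, Acta2 and Krt18, and the -/- arrays lie below the E14 and E99 arrays for Tagln.

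Among immediate-early genes, which SRF controls with ternary complex factors, Egr1 showed the largest difference. This zinc-finger factor read -50 to 404 (median 97) in the -/- arrays and 283 to 926 (median 628) in the others. The groups overlapped through E100 SRFdM-VP16 replicate 2 (404) and both E81 SRFdM-VP16 arrays (320 and 296). The change was -2.09 ± 0.45 (adjusted p = 0.34), with -2.89 in the vector arrays and -1.41 in the SRFdM-VP16 arrays. It passed in 1 of 35 other settings, the fit of all 23 arrays with 1 mean per group (-2.18, adjusted p = 0.045). Of 27 immediate-early genes tested, 0 passed by limma, with a median of 0.11. At an unadjusted p under 0.05, 2 were lower and 1 higher (0.884% and 4.53% over all named genes). The other lower one was Fosl2, a Fos relative (43 to 315 against 240 to 425, -1.12 ± 0.38, adjusted p = 0.83). The matricellular Ccn1 read -35 to 149 against 43 to 1122 (-1.12 ± 0.57, adjusted p = 0.85), Junb changed by -0.73 ± 0.71 (adjusted p = 0.91) and Fos by 0.36 ± 0.31 (adjusted p = 0.89). Nppb, a natriuretic peptide gene, was near background in both groups (0.47 ± 0.24, adjusted p = 0.85). Of 13 striated-muscle genes 1 was lower at an unadjusted p under 0.05 (0.884% over all named genes).

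Among the genes of the ES cell state, Dppa3 was the only call. It read 463 and 239 in E14 and 233 and 363 in E99 with vector, and 496 and 209 in E14 and 314 and 1277 in E99 with SRFdM-VP16. The 7 -/- arrays read -143 to 58, all at or below the floor. The mean of E14 and E99 on the log2 scale was at least 6.46-fold above the floor, and the fitted change was -2.71 ± 0.34 (adjusted p = 0.002). No -/- array had a measurable signal, and the lowest value of E14 and E99 was 209. Dppa3 stayed at that level with SRF-VP16, with -129 to 75 in the -/- lines against 193 to 707 in E14 and E99 (exact permutation p = 0.0286 over 4 against 4 arrays, the smallest that design allows; limma adjusted p = 0.083). The genotype difference with SRF-VP16 minus that without it was 0.10 (SE 0.56, adjusted p = 1). The tested genes next to Dppa3 in chromosome order are Gdf3, a TGF-beta family ligand, and Nanog, a core pluripotency factor. Gdf3 changed by 0.08 ± 0.23 (adjusted p = 0.97) and Nanog by 0.02 ± 0.26 (adjusted p = 0.99). From Rimklb to Necap1, none of the nearest tested genes passed. Their changes ran from -0.15 (Slc2a3) to 0.96 (Apobec1, adjusted p = 0.85).

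Of 31 pluripotency genes, Dppa3 alone passed, and the median was 0.13. At an unadjusted p under 0.05, 2 were lower and 3 higher (0.884% and 4.53% over all named genes). The central factor Pou5f1 read 15730 to 29982 (median 24021) against 19553 to 27868 (median 22956), a change of 0.02 ± 0.13 (adjusted p = 0.99). Zfp42 (0.13 ± 0.34), the growth factor Fgf4 (0.07 ± 0.17) and Klf2 (0.29 ± 0.23) did not pass. Lefty1, an inhibitor of Nodal signalling, read 555 to 1259 against 770 to 3398 (-1.01 ± 0.29, adjusted p = 0.75). The 3 higher were Klf4 (0.57 ± 0.22), the LIF receptor Lifr (0.63 ± 0.26) and the nuclear receptor Nr5a2 (0.55 ± 0.19), each at adjusted p = 0.83. The other tested probe sets of Lifr, all dimmer, read 0.60, 0.74 and -0.18. Rhox5, an X-linked homeobox gene, had the smallest p after the 2 calls. It read -219 to 159 (median -101) against -25.5 to 1055 (median 688), a change of -2.84 ± 0.54 (adjusted p = 0.21), and E14 vector replicate 1 was the only array of E14 and E99 below 278. Without that array it passed, at -3.26 (adjusted p = 0.002). Rhox5 and the other genes here outside the fixed lists were named after their values were seen.

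Differentiation genes showed no calls by limma. The 16 primitive-endoderm genes had 3 lower at an unadjusted p under 0.05 (Krt8, Krt18 and the lipoprotein gene Apoe, -0.38 ± 0.18), against 0.884% over all named genes, and a median of 0.24. The mesoderm (11 tested), neurectoderm (8) and trophoblast (7) genes had none in either direction, with medians of 0.28, -0.03 and 0.25. The 12 fibroblast genes had none either, with a median of 0.10. The same held for 17 cell-cell adhesion genes (median 0.01), 14 apoptosis regulators (0.14), 12 interferon and antigen-presentation genes (0.07), 17 glycolysis genes (-0.04), 14 heat-shock and ER-stress genes (-0.01) and 11 housekeeping genes (0.00). Mcl1, an anti-apoptotic gene reported as an SRF target, changed by 0.23 ± 0.21 (adjusted p = 0.91). Of 18 imprinted genes, 1 was lower at an unadjusted p under 0.05, the proteolipid gene Nnat (-10 to 169 against 69 to 1059, -1.44 ± 0.55, adjusted p = 0.83). All 9 p53 targets read above 0, as did 4524 of the 6337 named genes, and their median was 0.36. At an unadjusted p under 0.05 the cyclin Ccng1 alone was higher (0.62 ± 0.24), against 4.53% over all named genes.

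On the higher side, no probe set passed by limma. Mki67, a marker of cycling cells, read 2048 to 2928 (median 2160) in the -/- arrays and 1084 to 1900 (median 1404) in the others, without overlap (0.68 ± 0.15, adjusted p = 0.34). With SRF-VP16 its groups overlapped, at 639 to 1673 against 849 to 1668. Of 35 cell-cycle genes, Mki67 and the topoisomerase Top2a (0.34 ± 0.13) were higher at an unadjusted p under 0.05 (4.53% over all named genes). In this list 0 were lower, and the median was 0.10. Eif2ak3, the ER-stress kinase PERK, read 34 to 264 (median 194) against -89 to 84 (median 46), a change of 1.30 ± 0.27 (adjusted p = 0.33). Without E81 SRFdM-VP16 replicate 1 it passed (1.52, adjusted p = 0.0064).

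A CArG box in a promoter window did not set genes apart by their median. Of the 6337 named genes tested, 5113 had a promoter window and 90 of these held the element. The 90 had a median change of 0.09 against 0.13 for the 5023 without it. At an unadjusted p under 0.05, 5 of the 90 (5.56%) were lower, against 0.737% of those without, and 6 (6.67%) were higher, against 4.72%. The 5 were Actg1, Cnn2, Actc1, Fhl1 and Ergic1, and the call of Actg1 is counted among them. The Actc1 probe set can hybridise to related transcripts, and the other tested Fhl1 probe set read 0.16. Cnn2 was highest in the 2 E14 arrays numbered 2, and Ergic1 was at the floor in the -/- arrays. Ampd3 and the keratin Krt12 hold the element too and were higher (1.09 ± 0.31 and 1.90 ± 0.47, both adjusted p over the threshold, 0.75 and 0.58).

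The genotype change was also compared between the plasmids. The genotype change with SRFdM-VP16 minus that with vector passed for 0 probe sets by limma, with 156 (1.78%) at an unadjusted p under 0.05. For Actg1 it was -0.59 ± 0.27 and for Dppa3 -0.54 ± 0.68, both adjusted p = 1. With 7 vector arrays alone Actg1 read -0.93 and Dppa3 -2.42, and with 8 SRFdM-VP16 arrays alone -1.52 and -2.96, neither called in these smaller fits. The -/- lines themselves differed at 84 probe sets (0.956%), 83 of them lower in E81 (0.945%), and the count of 84 was 26 with quantile-normalized arrays. Neither Actg1 nor Dppa3 was among the 84. Actg1 and Dppa3 kept their calls when any 1 of the 15 arrays was left out.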

How the data were processed

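The samples were total RNA from mouse ES cells, each hybridised to 1 array. The authors deposited linear intensities, 1 for each probe set of each array. How they corrected the background or scaled the arrays is not given in the sources. In the 15 arrays, 29.9% of the values were at or below 0. The 66 control probe sets, of 12502, were set aside. The filter required 3 of the 15 arrays to exceed their own 40th percentile, so 8785 were tested and 3651 removed. Intensities below 58, the 40th percentile over all 23 arrays, were raised to 58 before log2. Symbols came from the platform annotation: 10141 probe sets had 1 symbol (10122 found in the reference gene table), 362 had several and 1933 had none. A gene was read by its brightest probe set.

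The test was limma 3.58.1 (R 4.3.3) on genotype with plasmid as a term and a trend in intensity, with 12 residual degrees of freedom; p-values were two-sided and adjusted by Benjamini-Hochberg at 5%. Line was not a term. Exact permutation tests were two-sided over arrays. The procedure was tested on simulated data. Genes were named if they passed without overlap of arrays (12 largest each way), as list members past the threshold, or from a fixed set of 27, of which 22 were tested; others were named after their values were seen. The members and lists were chosen with earlier results of these data known. The replicate numbers were not used to pair the samples in the main comparison. Whether they mark pairs was examined only by correlations and by a fit with a replicate block, both given below. Alternatives were other scalings, floors, filters and models, subsets of lines or plasmids, and leaving out arrays.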

Additional observations from a re-analysis of the deposited data

Results flagged for a closer look

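In 14 of 113 sets of arrays examined (7 -/- arrays or 8 others, for each named gene), 1 array stood far from the rest, measured as its gap to the next array over the whole range on the floored log2 scale. Chance would flag about 1 in 20 if values were normally spread, which values raised to the floor are not. Where 1 array alone lies above the floor the gap is 1 by construction. The count of 14 therefore cannot be set against that rate. E81 SRFdM-VP16 replicate 1 was the array in 4 of these: Vcl read 89 against 1026 or more (gap 0.917), Zfp42 3277 against 12374 or more (0.71), Nanog 522 against 1097 or more (0.676) and Ccng1 1219 against 724 or less (0.643). E100 SRFdM-VP16 replicate 2 was alone above the floor for Cnn2 (154, gap 1) and Uty (69, gap 1), and read 328 for Eif2s3y against 95 or less (0.715). E81 vector replicate 1 was alone above the floor for Acta1 (66, gap 1) and Rhox5 (159, gap 1), and E81 vector replicate 2 for the ubiquitin-conjugating variant Ube2v2 (88, gap 1). Among E14 and E99 arrays, Vcl read 2969 in E14 vector replicate 2 against 1510 or less (0.725), Gdf3 1991 in E14 SRFdM-VP16 replicate 2 against 3366 or more (0.629), Tln1 125 in E14 SRFdM-VP16 replicate 1 against 228 or more (0.537), and Rhox5 -25.5 in E14 vector replicate 1 against 278 or more (0.54).

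For 5 named genes the genotype difference with SRF-VP16 differed from that without it, in a limma fit of all 23 arrays at an adjusted p under 0.05. In each the change was toward higher values in the -/- lines: Actg1 by 1.72, Actc1 by 3.13, Egr1 by 4.24, Inhba, an activin subunit, by 4.51, and Nppb by 3.85. Over all probe sets 16 passed this test, or 0.182%, and 15 of them were in that direction.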

How the results depend on the processing

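Actg1 and Dppa3 read lower in all 35 other settings and were called in 29 and 30 of them. Actg1 lost its call after division by the array median (-1.42, adjusted p = 0.084), and Dppa3 with a floor at the 60th percentile (-0.49). That floor was 299, and the E14 and E99 values of Dppa3 ran from 209 to 1277 (median 338.5). The count of 2 calls, 2 lower and 0 higher, became 1 lower call in each of these settings. The count was 0 with each line averaged to 1 value, in the vector arrays alone, in the SRFdM-VP16 arrays alone and with E81 alone. In these settings 241, 400, 269 and 341 probe sets had an unadjusted p under 0.05 by limma. With E100 alone the count of calls was 129, 3 lower and 126 higher. In a fit of all 23 arrays it was 7, 5 lower and 2 higher. The cause of these differences in count was not tested. Leaving out 1 array gave 2 to 3 calls, 2 to 3 lower and 0 to 1 higher, the higher one being Eif2ak3, as also when the E14 arrays numbered 2 were left out together with E81 SRFdM-VP16 replicate 1 (1 higher, chosen after seeing the data). The line as a random block (correlation within lines 0.028) gave the same 2 genes.

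The difference between plasmids gave 0 to 1 calls when 1 array was left out. E81 against E100 gave 84 calls, 26 after quantile normalization, 19 after division by the median and 32 to 228 when 1 array was left out (48 without E81 vector replicate 1, 228 without E81 vector replicate 2, 53 without the E100 vector array, 41 and 37 without E81 SRFdM-VP16 replicates 1 and 2, and 32 without E100 SRFdM-VP16 replicate 1). With a replicate block the counts were 2, 0 and 65, so no call of the first comparison changed. The main comparison did not take the replicate numbers as pairs. Differences between replicates 2 and 1 correlated between groups from -0.40 to 0.41 over 21 pairs of groups, 10 of them over 0.1. The highest, 0.41, was that of E14 between plasmids, whose 2 arrays numbered 2 share high Tagln, Acta2 and Krt18. Signal near the floor limits what can be said of Dppa3, Cnn2, Acta1 and Rhox5.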

Other observations

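E14 differed from the other 3 lines at Y-linked genes. Eif2s3y, a translation factor gene on the Y chromosome read by a probe set that can cross-hybridise, read 574 to 1432 in the 4 E14 arrays of the comparison. It read -17 to 80 in E99, -99 to 17 in E81 and 55 to 328 in E100. The Y-linked demethylase gene Uty read 90 to 252 in E14, -125 to -15 in E99, -314 to 36 in E81 and -31 to 69 in E100. Xist, the X-inactivation RNA, was below the filter, with -103 to 68 over the 15 arrays. At these 2 genes E99 lay within the range of the -/- lines, while at Dppa3 and Actg1 all its arrays lay above theirs. Whether line differences of this kind bear on the comparison was not tested. Against E99 alone, Eif2s3y changed by 0.31, and Dppa3 and Rhox5 (-3.41, adjusted p = 0.029) were the 2 calls.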
